A study of Rattus norvegicus with 8 samples.

Results

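Proteasome and immunoproteasome genes were taken as all rat genes whose symbol starts with Psma, Psmb, Psmc, Psmd or Psme. On Agilent Whole Rat Genome arrays 43 such genes had a probe, and 42 of them had a probe that was bright enough (well above background in 3 or more of the 8 arrays), out of 20700 genes kept in all. Of the 42 genes, 41 were well above background on all 8 arrays. The germ-cell alpha subunit Psma8 was not well above background on any array and was left out. RNA came from adipose-tissue-derived mesenchymal stem cells (ATSC), stromal cells isolated from subcutaneous fat of male Sprague-Dawley rats and grown in culture. By the labels, ATSC of 3 samples were on liver that had undergone ischemia-reperfusion injury (IRI), those of 4 samples on liver without that injury (non-IRI) and those of 1 sample in culture (in vitro). They state no genetic modification, no animal age, no time after injury and no sort of ATSC from the liver. Markers of blood cells were high on the liver arrays, as given below, and the share of ATSC RNA there was not measured. Nothing in the labels says whether the replicates come from different animals, and the p-values here cover the spread between these samples, which may be technical.

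The proteasome degrades proteins that carry ubiquitin chains. Its core particle is a stack of rings: outer alpha rings that gate the pore, and inner beta rings of which Psmb5, Psmb6 and Psmb7 carry the protease sites. The regulatory particle on top has a base, with a ring of ATPases that unfold the substrate, and a lid that removes ubiquitin. Interferon gamma and cells of the immune system bring in a second set of protease subunits, Psmb8 in place of Psmb5, Psmb9 in place of Psmb6 and Psmb10 in place of Psmb7, which form the immunoproteasome and cut peptides suited to MHC class I molecules. Psme1 and Psme2 build the PA28 alpha-beta cap, an ATP-independent activator that interferon gamma also induces. Hematopoietic cells carry much immunoproteasome, and most other cells carry mainly the constitutive form until they meet interferon. The 42 genes were read as an immuno set of 5 (Psmb8, Psmb9, Psmb10, Psme1 and Psme2), a constitutive set of 30 core and regulatory particle subunits, and 7 others.

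The promoters of the immuno set, except that of Psme1, are shown. The reasons are that interferon acts on the genes of this set through short DNA elements, and that 3 of the 5 genes rose together on liver. RefSeq promoter windows (build GRCr8, 250 bases before to 50 after the start given by the promoter table) were matched to 38 of the 42 genes. For the immuno genes that start lies inside the gene span (for Psmb10, at its edge) of the RefSeq gene table, whose coordinates are printed with each gene, and distances here are counted from the promoter table's start. Psmb8, Psmb9 and the peptide transporter gene Tap1 are neighbours in the MHC region of chromosome 20, and Psme1 and Psme2 are neighbours on chromosome 15. In the windows below, capitals mark each match to the interferon-stimulated response element (ISRE), searched on both strands as the letters GAAA, any 2 bases and GAAA again. Psmb8 (chr20:4656982-4657281, minus strand) held 1 match, Psmb9 (chr20:4668750-4669049, plus strand) 0, Psmb10 (chr19:50743243-50743542, minus strand) 2 and Psme2 (chr15:33052702-33053001, minus strand) 1. Each sequence is written along the gene's own strand.
Psmb8: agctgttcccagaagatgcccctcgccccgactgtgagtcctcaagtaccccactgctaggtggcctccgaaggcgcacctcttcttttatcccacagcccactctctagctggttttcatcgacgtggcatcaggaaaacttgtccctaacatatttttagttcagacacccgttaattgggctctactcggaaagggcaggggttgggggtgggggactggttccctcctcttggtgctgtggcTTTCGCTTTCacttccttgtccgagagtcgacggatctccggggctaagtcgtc
Psmb9: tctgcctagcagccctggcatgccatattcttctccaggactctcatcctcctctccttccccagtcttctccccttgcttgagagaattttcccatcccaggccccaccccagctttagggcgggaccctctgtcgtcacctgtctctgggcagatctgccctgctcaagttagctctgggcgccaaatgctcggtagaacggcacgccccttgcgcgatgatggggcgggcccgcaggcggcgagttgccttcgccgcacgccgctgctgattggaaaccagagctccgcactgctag
Psmb10: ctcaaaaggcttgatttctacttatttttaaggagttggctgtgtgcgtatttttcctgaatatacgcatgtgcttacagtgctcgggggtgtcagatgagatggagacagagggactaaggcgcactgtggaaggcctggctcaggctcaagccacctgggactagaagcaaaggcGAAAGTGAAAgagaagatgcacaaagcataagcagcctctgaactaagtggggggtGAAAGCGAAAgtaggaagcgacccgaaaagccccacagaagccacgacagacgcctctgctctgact
Psme2: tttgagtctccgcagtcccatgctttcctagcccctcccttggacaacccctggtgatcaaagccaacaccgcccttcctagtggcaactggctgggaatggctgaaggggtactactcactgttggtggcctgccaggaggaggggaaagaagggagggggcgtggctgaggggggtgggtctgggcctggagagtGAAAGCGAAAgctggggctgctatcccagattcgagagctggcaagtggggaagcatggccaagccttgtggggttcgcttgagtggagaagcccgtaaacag
In the window of Psme1, which is not printed, the ISRE letters had 0 matches. Its last bases, tttcgctt, equal the first letters of the ISRE on the other strand, and the window edge cuts off what follows. Across promoters, 3 of 5 windows of the immuno set (60%), 3 of 26 of the constitutive set (11.5%; Psma4, Psmb3 and Psmd7) and 1312 of 33469 of all RefSeq windows (3.92%) held a match. Psmb9 and Tap1 are transcribed away from each other from starts 457 bases apart. Between them lies an ISRE match at chr20:4668655-4668664, 336 bases before the Psmb9 start and so outside its window, and 112 bases before the Tap1 start. That stretch is shown along the Tap1 strand (chr20:4668640-4668679, minus strand), with the match in capitals.
Tap1: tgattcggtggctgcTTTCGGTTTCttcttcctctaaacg
The interferon gamma activated site (GAS), searched as TTCNNNGAA, which reads the same on both strands, matched 1 of 5 immuno windows (Psmb8), 3 of 26 constitutive windows (Psmc6, Psmd3 and Psmd7) and 8.87% of all windows. The core of the antioxidant response element, through which Nrf transcription factors act on constitutive subunits, was searched as TGANNNNGC on both strands. It matched 1 of 5 immuno windows (Psmb9), 16 of 26 constitutive windows (61.5%) and 40.5% of all windows. A match describes these letters in these windows and does not show that a factor binds there.

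**Figure D1:**
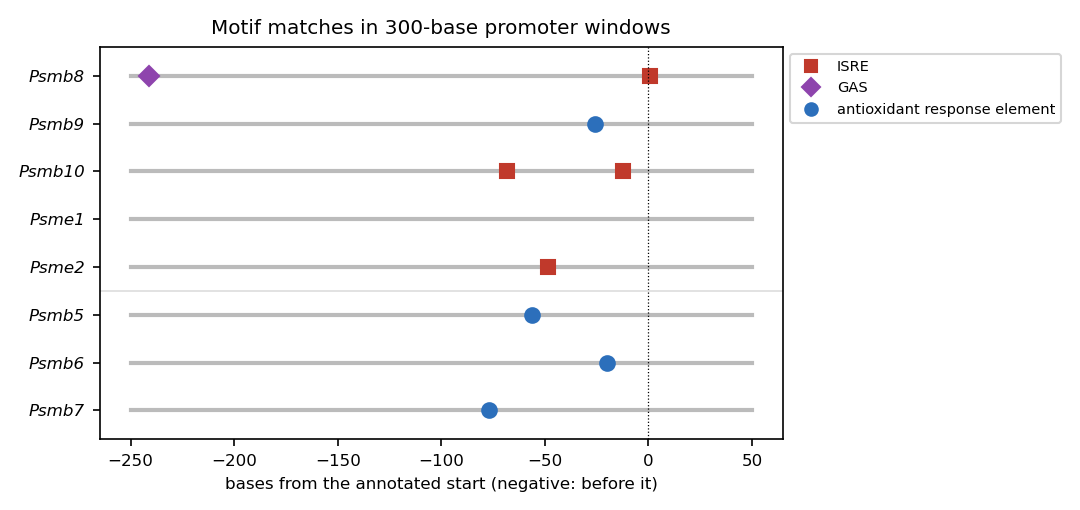
Positions of motif matches in the 300-base promoter windows of the 5 immuno genes (above the line) and of the 3 catalytic subunits they pair with (below); the x axis is the distance in bases from the promoter table's start. ISRE matches lie in Psmb8, Psmb10 (2 matches) and Psme2. Psmb5, Psmb6 and Psmb7 each hold an antioxidant response element match, as does the immuno gene Psmb9, beside 40.5% of all windows.

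Levels are given as log2 of the scanner's processed signal relative to its array's 75th percentile, so 0 is that percentile and 1 unit is a doubling. They are compared between arrays for 1 gene, not between genes, because probes differ in brightness. The 75th percentile lay between 155.7 and 291.3 intensity units, and 53.5 to 59.7% of spots were well above background; the number of arrays limits the precision. Per the file headers, the 3 IRI arrays and the in vitro array share slide 1 and the 4 non-IRI arrays fill slide 2, so slide and injury cannot be told apart. The spread between arrays of a group was small for most members, with a median SD of 0.16 in IRI and 0.24 in non-IRI. Markers of blood cells stood apart between liver and culture. The leukocyte list (13 genes kept) had a mean level of 3.87 to 4.07 on the IRI arrays, 3.33 to 3.97 on the non-IRI arrays and -3.54 in vitro. The mesenchymal stromal list (14 genes) had 4.91 to 4.95 on the IRI arrays, 4.76 to 5.08 on the non-IRI arrays and 5.14 in vitro.

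The comparison of the liver arrays with culture asks how proteasome expression of samples labelled as ATSC on liver differs from that of ATSC in a dish. All 3 immunoproteasome protease subunits were higher on liver, between 2.24-fold and 3.81-fold, and the constitutive protease subunits they replace were lower, between 2.06-fold and 2.84-fold. In limma's test across all genes (Benjamini-Hochberg adjusted p under 0.05, average of the IRI and non-IRI means, minus in vitro), 3 of 42 members rose, beside 16.6% of 20689 genes tested, and 24 of 42 fell, beside 17.3% of genes. The share that fell among the members (57.1%) stood above that of all genes, and the share that rose (7.14%) below it. The in vitro group is a single array, whose spread was taken to be that of the liver groups. The median difference over all genes tested was -0.22, against 1.17 for the immuno set and -1.03 for the constitutive set, so relative to all genes the sets lay at 1.38 and -0.81.

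Psmb8 (NM_080767, chr20:4654068-4657049), also called LMP7, had levels of 4.01, 3.62 and 4.04 on the IRI arrays, 3.86, 3.66, 4.38 and 3.67 on the non-IRI arrays and 2.21 in vitro. All 7 liver arrays lay above culture and both liver groups overlapped. The log2 difference between liver and in vitro was 1.68 ± 0.31 (SE; 3.20-fold; adjusted p = 0.00565, limma). Psmb9 (NM_012708, chr20:4668952-4674421), or LMP2, had 6.34, 5.49 and 5.91 on the IRI arrays, 5.70, 5.68, 6.02 and 5.37 on the non-IRI arrays and 3.88 in vitro. Its difference was the largest of the immuno set, 1.93 ± 0.34 (3.81-fold; adjusted p = 0.00450, limma). Psmb10 (NM_001025637, chr19:50740808-50743292), or MECL-1, had 5.88, 5.15 and 5.32 on the IRI arrays, 5.80, 5.51, 5.99 and 5.29 on the non-IRI arrays and 4.38 in vitro. Its difference was 1.17 ± 0.34 (2.24-fold; adjusted p = 0.0335, limma). This call was close to the threshold and did not pass in 6 of 19 alternative settings. Among them were leaving out IRI 3 (0.0538) or non-IRI 1 (0.0557), no filter on dim probes (0.0667) and median scaling (0.86, adjusted p = 0.0526, limma).

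The PA28 subunits, which cap the same core particle, did not pass. Psme1 (chr15:33038962-33041849) had 5.15, 4.98 and 5.02 on the IRI arrays, 4.97, 5.10, 5.34 and 4.88 on the non-IRI arrays and 4.41 in vitro. Its 7 liver arrays all lay above culture, by 0.65 ± 0.23 (SE, adjusted p = 0.0623, limma). Psme1 passed with quantile normalization (1.05, adjusted p = 0.00745, limma). With normexp background correction and bright background spots set to the median it also passed (0.69, 0.037). It did not pass with median scaling (0.35, 0.303) or with the replicate number as a block (0.65, 0.156). Psme2 (chr15:33048452-33053055), whose promoter holds an ISRE match, had 4.86, 4.67 and 4.80 on the IRI arrays, 4.53, 4.83, 5.07 and 4.59 on the non-IRI arrays and 4.64 in vitro. Here culture lay inside the range of the liver arrays, with a difference of 0.13 and a 95% interval of -0.44 to 0.70. The other caps did not share the rise of the protease subunits. Psme3, which encodes the nuclear activator PA28 gamma, had 3.21, 2.82 and 3.09 on the IRI arrays, 3.08, 3.22, 3.43 and 2.68 on the non-IRI arrays and 4.66 in vitro, and fell by 1.59 on the log2 scale (adjusted p = 0.00548, limma), the lowest difference among the members that passed. Psme4, the activator PA200, differed by -0.41 (0.222).

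Each constitutive protease subunit moved against its immuno counterpart. Psmb5, the chymotrypsin-like site, had 5.31, 4.91 and 5.08 on the IRI arrays, 5.15, 5.24, 5.18 and 4.87 on the non-IRI arrays and 6.61 in vitro. All 7 liver arrays lay below culture, and the difference was -1.51 ± 0.24 (SE; adjusted p = 0.00263, limma). Psmb6, the caspase-like site, had 3.41, 3.99 and 3.83 on the IRI arrays, 3.39, 4.07, 3.90 and 3.56 on the non-IRI arrays and 4.78 in vitro, a difference of -1.04 ± 0.32 (0.0384). Psmb7, the trypsin-like site, had 3.28, 3.82 and 3.78 on the IRI arrays, 3.23, 3.74, 3.62 and 3.54 on the non-IRI arrays and 4.78 in vitro, a difference of -1.20 ± 0.28 (0.0149). Both were lower on every liver array than in vitro. The Psmb6 call did not pass in 8 of 19 alternative settings. Among them were leaving out IRI 3 (0.0644), non-IRI 1 (0.0523) or non-IRI 4 (0.0603), and quantile normalization (-0.60, adjusted p = 0.173, limma).

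**Figure D2:**
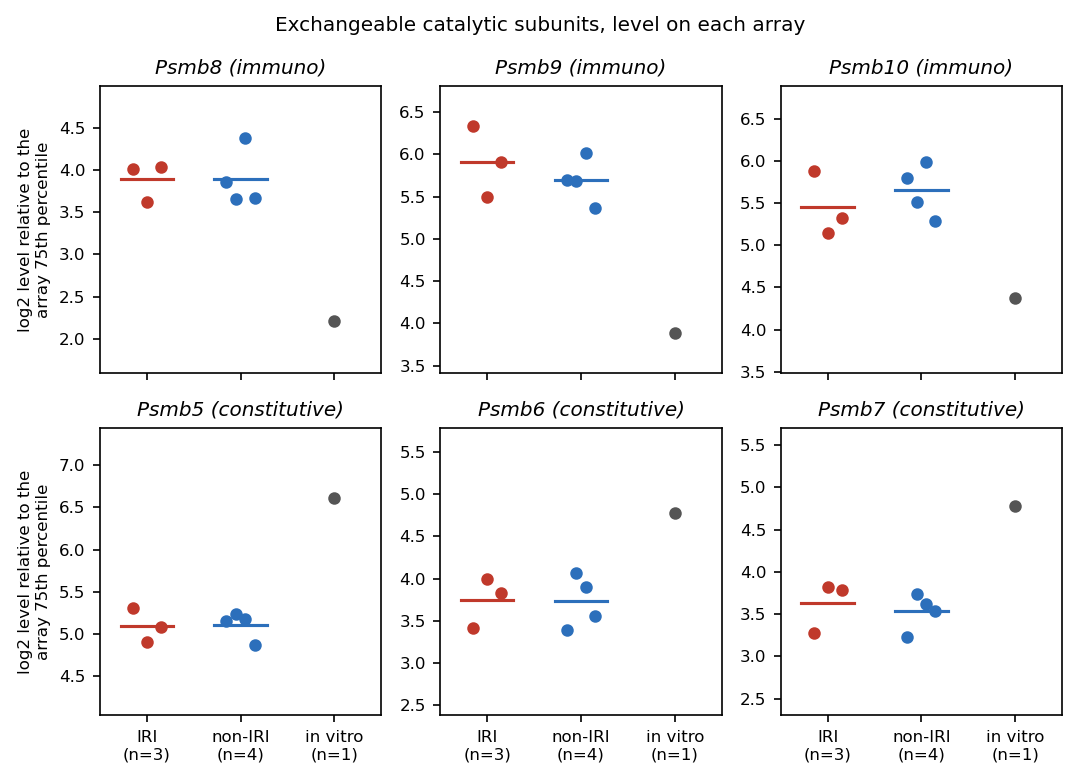
Level of the 3 immunoproteasome protease subunits (top row) and of the constitutive subunits they replace (bottom row), in log2 relative to the array's 75th percentile, with 1 point per array and a line at the group mean of IRI (n = 3) and non-IRI (n = 4); in vitro has 1 array. Each panel spans the same number of log2 units around its own gene, the liver arrays lie above culture in the top row and below it in the bottom row, and IRI and non-IRI overlap in all panels.

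Set as pairs, the change of the immuno subunit minus the change of its constitutive counterpart, both against in vitro, was positive on all 7 liver arrays. For Psmb8 against Psmb5 it was 3.09, 3.11 and 3.36 log2 units on the IRI arrays and 3.10, 2.82, 3.60 and 3.20 on the non-IRI arrays. For Psmb9 against Psmb6 it was 3.83, 2.40 and 2.99 on the IRI arrays and 3.21, 2.51, 3.03 and 2.71 on the non-IRI arrays. For Psmb10 against Psmb7 it was 3.00, 1.73 and 1.93 on the IRI arrays and 2.97, 2.17, 2.76 and 2.15 on the non-IRI arrays. The shift of the pair was thus between 3.31-fold and 14.2-fold on any single liver array. A shift common to all genes of an array cancels in this difference. The Psmb8 pair averaged 3.19 ± 0.15 in IRI and 3.18 ± 0.32 in non-IRI (SD, n = 3 and 4), the Psmb9 pair 3.07 ± 0.72 in IRI and 2.87 ± 0.31 in non-IRI, and the Psmb10 pair 2.22 ± 0.68 in IRI and 2.51 ± 0.42 in non-IRI. Within each pair the liver groups differed by less than the SD of either. These values share the in vitro array, so its error enters all of them.

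The rest of the constitutive proteasome was lower on liver as well. Of the 30 constitutive members 0 rose, 20 fell, beside 17.3% of all genes, and 10 did not pass. All 30 differences were negative, beside 12310 of 20689 genes. An unadjusted p under 0.05 in limma's test was found for 22 of the 30, beside 9427 of all genes in either direction. Of the base ATPases, which unfold substrates, 6 of 6 fell, between -1.23 for Psmc1 and -0.95 for Psmc5, with a median of -1.07. Psmc1 had 5.23, 5.12 and 5.11 on the IRI arrays, 5.10, 5.27, 5.30 and 5.02 on the non-IRI arrays and 6.39 in vitro (difference -1.23 ± 0.20 SE; adjusted p = 0.00339, limma). All 3 base subunits without ATPase activity fell: the scaffold subunits Psmd1 (-1.12) and Psmd2 (-0.89), and the ubiquitin receptor Psmd4 (-1.08). In the lid 4 of 7 fell, namely Psmd3 (-1.35), Psmd7 (-1.30), Psmd8 (-1.25) and Psmd12 (-1.10). Psmd13 (-1.24, adjusted p = 0.0632), the deubiquitinase Psmd14 (-0.70, 0.240) and Psmd6 (-0.24, 0.503) did not pass.

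The alpha ring had the median nearest to 0 among the constitutive groups, -0.55. Of its 7 genes 2 fell, Psma7 by 0.84 on the log2 scale (adjusted p = 0.0416, limma) and Psma4 by 0.75 (0.0330). The Psma7 call did not pass in 11 of 19 alternative settings, and the Psma4 call in 8. Of the beta ring genes without a protease site Psmb2 (-1.17, adjusted p = 0.0113) and Psmb3 (-1.0, 0.0144) fell, while Psmb4 (-0.50, 0.137) and Psmb1 (-0.44, 0.307) did not pass. Psma5 carries a spot that stands apart: its intensity was 2.50 on non-IRI 1 against 17340 to 31550 on the other 7 arrays, and the scanner did not flag it. With that spot the Psma5 difference was -2.11 ± 4.36 (SE), and without it -0.46 ± 0.24 (adjusted p = 0.175), and neither passed. Among the chaperones that assemble the base, Psmd9 fell by 1.33 (0.00402) and Psmd5 by 0.95 (0.0398) on the log2 scale, and Psmd10, also called gankyrin, differed by 0.12 (0.782). Psme3ip1, for which no role is given here, fell by 0.72 (0.0361). The Psmd5 call did not pass in 11 of 19 alternative settings, and the Psme3ip1 call in 9. Psmc3ip, a meiotic recombination factor and not a proteasome subunit, differed by -0.71 (0.0533).

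**Figure D3:**
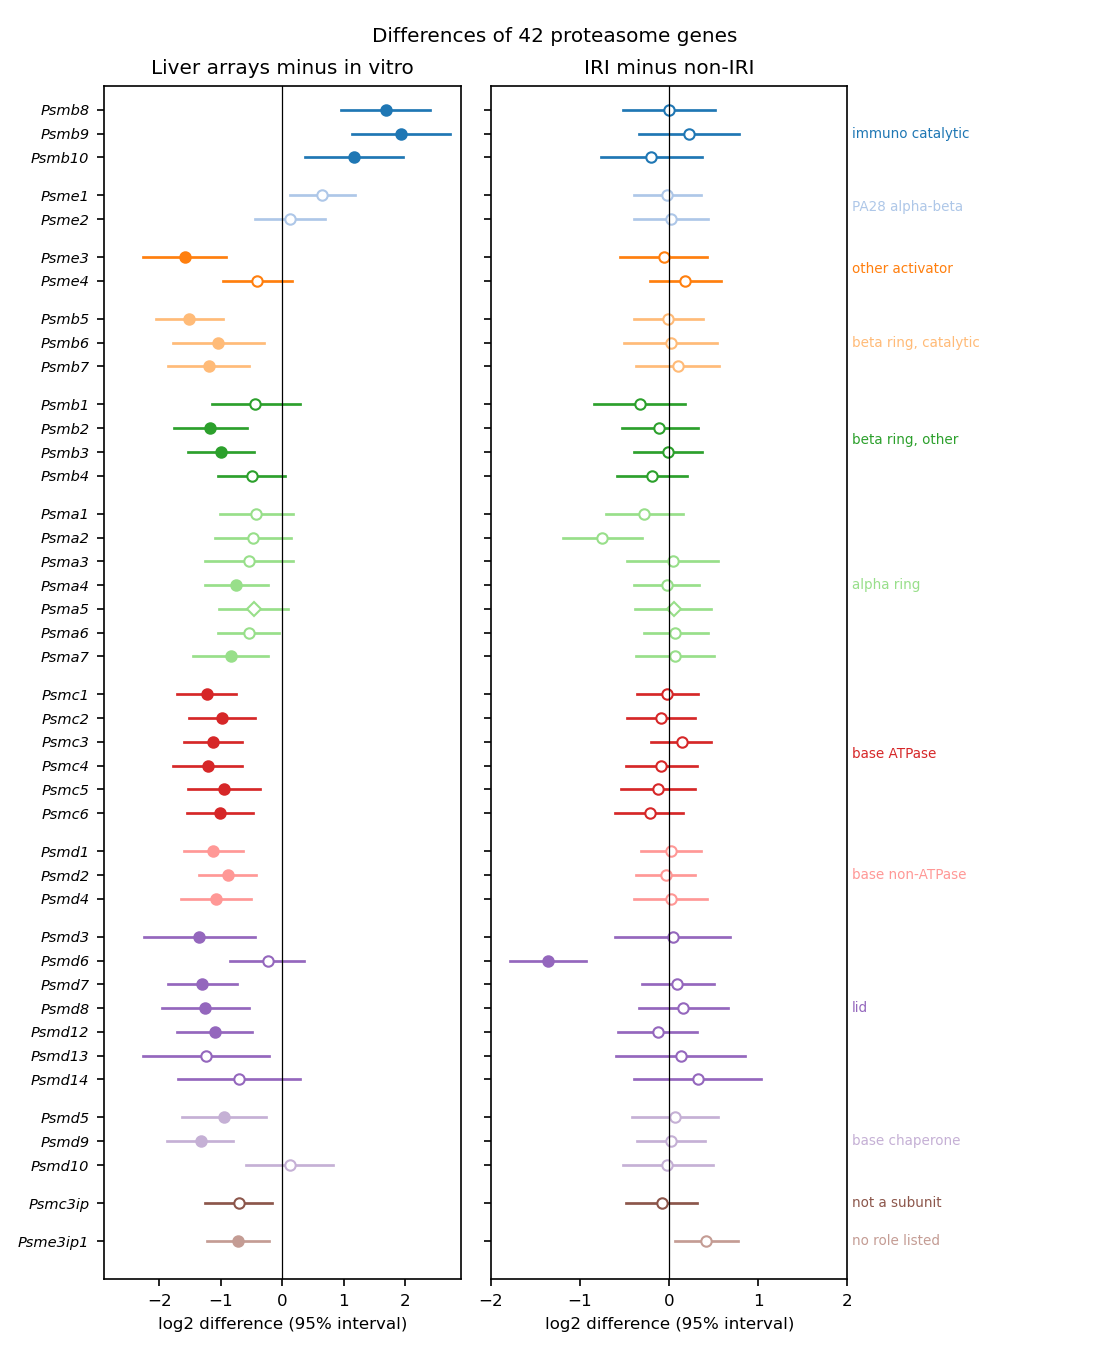
Log2 difference of each of the 42 genes with its 95% interval, for the mean of the liver groups minus in vitro (left) and for IRI minus non-IRI (right), grouped by role; filled points passed at an adjusted p under 0.05, and Psma5 (diamonds) is drawn without the spot of non-IRI 1. In the left panel 3 immuno protease subunits lie to the right of 0 and the constitutive groups to the left, and in the right panel most points lie near 0 and only Psmd6 passed.

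Without regard to size, 4 members had all 7 liver arrays above in vitro (Psmb8, Psmb9, Psmb10 and Psme1), beside 25.1% of 20630 genes, and 32 had all 7 below, beside 39.2%. Genes with several probes gave the same direction: the additional kept probes of Psmc4 (-1.04), Psmc6 (-0.82), Psmd1 (-1.12), Psmd2 (-1.41), Psmd7 (-0.95 and -1.08), Psma6 (-0.28) and Psme4 (-0.07) were also lower on liver. Within slide 1, where IRI and in vitro arrays lie together, IRI minus in vitro gave 2 members higher, beside 14.6% of all genes, and 21 lower, beside 14.4%. There Psmb8 (1.67, adjusted p = 0.00898) and Psmb9 (2.04, 0.00556) passed and Psmb10 (1.07, 0.0641) did not.

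The number of falls depended on the scaling, while no member that passed changed sign under any setting tried. With quantile normalization 4 members rose and 8 fell, and with median scaling 2 rose and 28 fell. Over all 20689 genes tested the split was 3432 higher and 3587 lower with the 75th percentile, and 3193 and 2902 with quantile normalization. With median scaling it was 2762 and 6024, and the median of all genes lay at -0.52. Relative to the median of all genes, the constitutive set lay at -0.81 with either of these scalings and at -0.42 with quantile normalization, where 29 of the 30 differences were negative and Psma1 was at 0.03. With the replicate number as a block 16 members fell, 13 of them constitutive; Psma4 (0.154), Psma7 (0.0505), Psmb3 (0.0586), Psmc2 (0.0751), Psmc5 (0.0725), Psmd2 (0.0715), Psmd3 (0.0529), Psmd4 (0.0759) and Psme3ip1 (0.0774) no longer passed, and Psmd13 (0.0226) did. Leaving out 1 array in turn left 20 of the 27 calls in place each time; besides Psmb10 and Psmb6, those of Psma4, Psma7, Psmd3, Psmd5 and Psme3ip1 were lost without at least 1 array. With normexp background correction 0 members passed in limma's test, although 2 higher and 11 lower members had an unadjusted p under 0.05.

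Genes that work beside the proteasome were described from lists. Their counts stand beside 16.6% of all genes that rose and 17.3% that fell. Of 9 kept assembly factors and cofactors 3 fell, 0 rose and the other 6 stayed under the threshold, at a median difference of -0.49: the deubiquitinase Usp14 fell by 1.20, the associated thioredoxin Txnl1 by 0.76 and the assembly chaperone Psmg2 by 1.24 on the log2 scale (adjusted p = 0.0112, 0.0285 and 0.0476, limma). Pomp, the maturation factor of the core particle, differed by -0.49 (0.105). Of 13 kept genes of ubiquitin and its shuttle factors 0 rose and 6 fell, with a median of -0.65, among them Vcp (-1.07), the unfolding ATPase that hands substrates over, and the shuttle factor Rad23b (-1.23). Both medians lay below the -0.22 of all genes.

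Genes of interferon gamma signalling and MHC class I presentation were higher on liver together with the immuno subunits. Of 29 kept 17 rose, 1 fell (the chaperone Calr, named after its value was seen) and 11 did not pass, beside 16.6% of all genes that rose; the median was 1.58, or 1.15 with 5 genes not above background in vitro at their lower bound. Of the 29 genes 23 were well above background in vitro; beside these 5, Ifng was not, and no bound above 0 could be given for it. The chemokine Cxcl10 was at least 49.3-fold higher and the class II transactivator Ciita at least 5.68-fold higher, the bounds being set by the lowest signal above background in vitro. The class I gene RT1-S3 rose by 2.12, the transcription factor Irf9 by 1.81 and the guanylate-binding protein Gbp2 by 2.81 log2 units. Irf1, a transcription factor that binds ISRE, rose by 2.14 (adjusted p = 0.00934, limma) and B2m, the class I light chain, by 1.13 (0.0228). The peptide transporter genes differed by 1.01 for Tap1 (0.151) and 0.63 for Tap2 (0.291). Tap1, the divergent neighbour of Psmb9, thus did not pass where Psmb9 did; the difference between them was not tested.

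Blood cell markers moved with this comparison, in which 16.6% of all genes rose and 17.3% fell. In the leukocyte list 12 of 13 rose, and 7 of the 13 were well above background in vitro against 13 on all 7 liver arrays. The leukocyte integrin chain Itgb2 was not well above background in vitro and was at least 360-fold higher on liver. Of the macrophage and Kupffer cell list 12 of 13 rose, with mean levels of 4.17 to 4.63 on the IRI arrays, 3.20 to 4.37 on the non-IRI arrays and -4.88 in vitro, and of the T and NK cell list 17 of 18, with 0.27 to 0.86 on the IRI arrays, -0.04 to 0.96 on the non-IRI arrays and -5.75 in vitro. In vitro only 3 of the 13 macrophage and 3 of the 18 T and NK cell genes were well above background, so both in vitro means rest mostly on signals not above it. Of the other lists 3 of 4 B cell, 3 of 6 endothelial, 2 of 4 erythroid and 10 of 13 hepatocyte genes rose, and 0 fell in any of these 4. Lyz2, C1qa and Mrc1 of the macrophage list were not well above background in vitro. Of the mesenchymal stromal list 1 of 14 rose and 3 fell, Itgb1 by 1.40, Vim by 1.22 and Thy1 by 1.60 on the log2 scale. The part of leukocyte RNA in the higher immuno subunits and in the lower constitutive ones was not tested, and in bulk samples fewer cells of a type and less RNA per cell cannot be told apart.

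**Figure D4:**
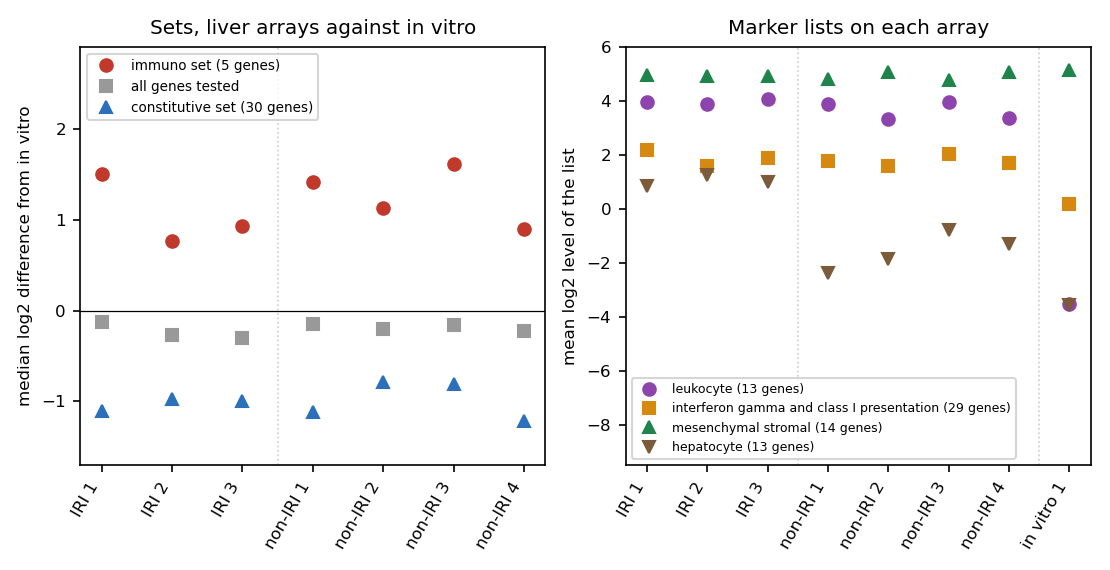
Left: the median log2 difference from in vitro of the immuno set, of all genes tested and of the constitutive set on each liver array. Right: the mean log2 level of 4 gene lists on each array. The immuno set lies between 0.77 and 1.61 and the constitutive set between -1.21 and -0.78 on the 7 liver arrays, and the leukocyte list lies between 3.33 and 4.07 on liver and at -3.54 in vitro.

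The comparison of IRI with non-IRI asks whether injury of the liver changes proteasome expression in the ATSC samples. The immuno set hardly differed: Psmb8 by 0.00 ± 0.22, Psmb9 by 0.22 ± 0.24, Psmb10 by -0.20 ± 0.24, Psme1 by -0.02 ± 0.16 and Psme2 by 0.02 ± 0.18 (log2, SE, adjusted p between 0.735 and 0.997 in limma's test). The 95% intervals ran from -0.52 to 0.51 for Psmb8, -0.34 to 0.78 for Psmb9 and -0.76 to 0.37 for Psmb10, so differences up to those sizes are not excluded by these samples. In all, 0 of 42 members rose, beside 0.406% of 20700 genes, and 1 of 42 fell, beside 2.78%. An unadjusted p under 0.05 was found for 3 of the 42, against 3176 of 20700 genes. The median difference was 0.00 for the immuno set, -0.01 for the constitutive set and 0.01 for all genes tested. The means of Psmb8 were 3.89 ± 0.23 in IRI and 3.89 ± 0.33 in non-IRI, and those of Psmb5 differed by -0.01 ± 0.17 (SE).

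Psmd6 (NM_198730, chr15:13532675-13542682), a lid subunit also called Rpn7, was the member that fell. It had -2.88, -2.41 and -2.72 on the IRI arrays, -1.48, -1.01, -1.43 and -1.32 on the non-IRI arrays and -1.75 in vitro. The IRI arrays lay below all others. The difference was -1.36 ± 0.19 (SE; 2.56-fold; adjusted p = 0.00812, limma). Its signal is the dimmest of the 42, though well above background on all 8 arrays. The call was lost without IRI 3 (-1.33, adjusted p = 0.0525) and under normexp, where the difference was -0.85 (0.734), or -0.59 (0.128) once spots with bright background were set to the array's median background. The other lid genes did not pass, their differences by the brightest probe running from -0.13 for Psmd12 to 0.32 for Psmd14. A second probe of Psmd7, whose brightest probe differed by 0.09, had 2.43, 2.08 and 2.12 on the IRI arrays against 2.71, 2.61, 2.79 and 2.48 on the non-IRI arrays, a difference of -0.44 with no overlap, and the mean of the Psmd7 probes differed by -0.15 (adjusted p = 0.73, limma).

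The alpha subunit Psma2 had 2.01, 2.11 and 1.83 on the IRI arrays, 2.48, 3.12, 2.66 and 2.67 on the non-IRI arrays and 2.84 in vitro. The groups did not overlap, but the difference of -0.75 ± 0.19 (SE) did not pass (adjusted p = 0.0938, limma). By the brightest probe of each gene, all IRI arrays lay below all non-IRI arrays for 3 members (Psma1, Psma2 and Psmd6), beside 9.46% of 20641 genes. They lay above them for 1 (Psme3ip1, 0.41, adjusted p = 0.255, limma), beside 6.65%. Second probes of Psmd7 and of Psmd1 (-0.31, against 0.02 by its brightest probe) also had all IRI arrays below. Psma5 differed by 3.34 ± 3.11 (SE) with the spot of non-IRI 1 and by 0.05 ± 0.18 without it. Among the assembly factors and cofactors 1 of 9 fell, beside 2.78% of all genes. This was the ubiquitin receptor Adrm1, which fell by 1.27 on the log2 scale (adjusted p = 0.0116, limma). Adrm1 was also a dim gene, with means of -4.63 in IRI and -3.36 in non-IRI. None of the 13 ubiquitin genes passed in limma's test, and their median difference was 0.09. In the interferon and class I list 1 of 29 rose, beside 0.406% of all genes. This was Tapbp, which loads peptides on class I molecules (0.86, adjusted p = 0.0298, limma).

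Hepatocyte markers moved with this comparison, in which 0.406% of all genes rose and 2.78% fell. Of 13 kept, 9 rose, with mean levels of 0.83 to 1.24 on the IRI arrays, -2.39 to -0.80 on the non-IRI arrays and -3.58 in vitro, and the groups did not overlap. In the leukocyte, macrophage and T and NK cell lists 0 members passed, with median differences of 0.32, 0.15 and 0.31, and likewise 0 in the B cell (0.50), endothelial (-0.75) and mesenchymal stromal (0.04) lists. In the erythroid list 0 of 4 passed the adjusted test, but the median difference was 2.97 and all 4 had an unadjusted p under 0.05 in limma's test, as had 4 macrophage genes, 1 mesenchymal stromal gene and 0 of the leukocyte, T and NK cell, B cell and endothelial lists. Its mean levels were -0.69 to 3.84 on the IRI arrays, -3.13 to -1.10 on the non-IRI arrays and -5.18 in vitro, and the IRI and non-IRI arrays did not overlap. The part of hepatocyte and erythroid RNA in the member differences was not tested, and since the IRI and non-IRI arrays lie on different slides, no value of this comparison within a slide can be had.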

How the data were processed

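Cy3-labelled RNA of 8 ATSC samples was hybridised to Agilent Whole Rat Genome arrays, each sample on an array of its own. Per the file headers, the deposited scanner intensity is the signal after background subtraction and correction within the array by Agilent Feature Extraction 11.0.1.1, with no scaling between arrays; the submitters' processing notes name version 9.1. The authors' deposited value table holds log2 values, scaled and then centred on each probe's median; across probes each column correlated at 0.9997 or more with the scanner values treated that way, and it served as an alternative only. An intensity without counts gives no depth.

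Log2 of the processed intensity minus the array's 75th percentile over non-control spots was used, with 45 to 117 spots per array left out as outliers. No spot was saturated. Probes were named through a table of RefSeq transcripts (GRCr8): 17541 of 41012 had a symbol. A gene was represented by its brightest kept probe, and 9431 of the 20700 genes had a symbol. The symbols Psmd11, Psmb11, Psmb3l1, Psmb3l2 and Psmb6l1 had no matched probe here. Group means were fitted on all 8 arrays with limma 3.58.1 in R 4.3.3 (lmFit, eBayes), with 5 residual degrees of freedom, with Benjamini-Hochberg adjustment across every gene tested. The fit was tested on simulated data. Where no in vitro array was well above background, a fold is a lower bound.

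The members, roles, 11 lists, motifs and tests were chosen with earlier results of these data known. By rule, any member may be named, and of each list up to 5 genes with the smallest p, with Tap1, Tap2, B2m, Irf1 and Nlrc5 among those added; Nlrc5 was not among the kept genes, and some named by the rule are not reported here. Same-numbered IRI and non-IRI samples correlated across genes at 0.19, 0.17 and 0.10 (each over 0.1 before rounding) after centring within each group. Samples of unlike number correlated at -0.19 to 0.09, so the pair at 0.10 hardly stood apart. The numbers of the labels were taken as pairs in an alternative with the replicate number as a block. The other alternatives were background correction by normexp with an offset of 50 (on the median signal, as the files used hold no mean signal), median scaling, quantile normalization, 3 filters on dim probes, the mean of a gene's probes, the slide and leaving out each liver array. A normexp setting with bright background spots set to the median, and the fit without the Psma5 spot, were added after seeing the data.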

Additional observations from a re-analysis of the deposited data

Results flagged for a closer look

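Psma5 on non-IRI 1 had a log2 level of -6.51, against 6.41 to 6.79 on the other 3 non-IRI arrays, a gap of 0.971 of the group's range, and was picked out as a sample far from the others of its group. The raw median intensity of that spot was 41, with a local background of 35.5, and Psma5 was well above background on the other 7 arrays. It was the 1 member of 42 so picked out among the non-IRI arrays (2.38%), where chance alone picks out about 5%. Without the spot, the non-IRI mean of Psma5 was 6.65 ± 0.21 (SD, n = 3).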

How the results depend on the processing

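Over the alternatives tried, no member that passed and neither set median of liver against in vitro changed sign. Under normexp, 0 members passed in limma's test in either comparison (unadjusted p under 0.05: 2 higher and 11 lower in liver against in vitro, 0 and 1 in IRI against non-IRI), and over all genes 0 passed in IRI against non-IRI and 528 rose and 243 fell in liver against in vitro; the set medians of IRI against non-IRI were 0.35 (immuno) and 0.25 (constitutive). With bright background spots set to the median, 0 members passed in IRI against non-IRI (1 higher and 3 lower unadjusted), and 4 rose and 23 fell in liver against in vitro. The cause was not tested. Quantile normalization gave 8 falls on liver, beside 2902 of 20689 genes, with medians of 1.56 (immuno) and -0.58 (constitutive). Median scaling gave a constitutive median of -1.33, which follows from its shift of all genes. Leaving out each liver array gave 0 to 1 falls in IRI against non-IRI (0 without IRI 3) and, on liver, 2 to 3 rises and 18 to 26 falls. With the replicate block, where in vitro shares number 1, 3 members rose and 16 fell on liver and 1 fell in IRI against non-IRI; apart from the calls named above it changed no member's call. Without a filter on dim probes 2 rose and 17 fell on liver. Slide as a block could not be fitted for IRI against non-IRI, since each of these groups lies on 1 slide. For liver against in vitro the slide setting was IRI minus in vitro, which lie together on slide 1. It is counted among the 19 alternative settings. Both normexp settings ended the call of Psmd6, the dimmest member, and the part of its dim signal in this was not tested.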
